A study of Mus musculus with 2 samples.

Results

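The 2694 loci described here are long intergenic non-coding RNA (lincRNA) loci that lie at most 50 kb from a gene, out of 4061 lincRNA loci on the array (66.3%). A lincRNA locus is an entry whose probe is named by a mouse mm9 interval and a strand in place of a gene symbol, forward or reverse. It was kept where its interval came within 50 kb of a probe whose accession is that of a RefSeq protein-coding transcript, and it was paired with the gene of the nearest such probe. The other 1367 loci lay further away. The rule uses positions and names only.

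The study profiled total RNA of 46C cells, a mouse embryonic stem cell line with a green fluorescent protein reporter at Sox1, at day 5 of neural differentiation. Wild type 46C cells and 46C cells with the genotype KO-Linc1548 were compared, with 1 array each. Both had been re-aggregated from single cells in low-adhesion dishes and kept in serum-replacement medium that was renewed every other day, and no other agent is given. The series title places Linc1548, itself a lincRNA, at the step from epiblast cells to neural progenitors. The labels do not say how the knockout was made, or whether it is 1 clone. The series has no replicates, only a single array of each genotype, so the differences carry no check between cultures and no test was made. Higher and lower always refer to the knockout array.

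LincRNAs are transcribed by RNA polymerase II from intervals between protein-coding genes, are often spliced and carry no long open reading frame. Many are restricted to a cell type, and in embryonic stem cells several act in the pluripotency network. Some influence the gene next to them, others act elsewhere, and for many no function is known, so the gene beside a locus is a place name and not a target.

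Each locus was read by 60-base probes, 2465 of the 2694 loci by a single probe and 229 by several, 2984 probes in all. The probe letters are printed because they are the measurement: a locus named by an interval many times longer is known here only through them. The probes of the 10 loci that were most increased on the knockout array were the following, each written 5′ to 3′ in the RNA's sense, with the polyadenylation hexamers aataaa and attaaa in capitals where present.

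chr4:146149125-146155054 (forward strand, near Zfp600): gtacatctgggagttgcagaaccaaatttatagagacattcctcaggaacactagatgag
chr2:71205705-71226510 (forward strand, near Hat1): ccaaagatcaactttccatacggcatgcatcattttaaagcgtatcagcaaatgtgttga
chr9:40029344-40050160 (reverse strand, near Zfp202): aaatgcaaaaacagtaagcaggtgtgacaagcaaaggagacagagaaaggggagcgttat
chr3:75451370-75459674 (reverse strand, near Serpini1): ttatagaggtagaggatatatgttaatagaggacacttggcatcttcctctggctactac
chr5:26333765-26338143 (forward strand, near Gm5862): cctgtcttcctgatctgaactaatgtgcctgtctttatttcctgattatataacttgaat
chr2:168136389-168136560 (reverse strand, near Kcng1): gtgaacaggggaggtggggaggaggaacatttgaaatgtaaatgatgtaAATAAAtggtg
chr7:50509139-50526856 (forward strand, near Zfp715): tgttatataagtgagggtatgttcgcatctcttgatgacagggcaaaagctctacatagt
chrX:100481826-100483511 (reverse strand, near Cdx4): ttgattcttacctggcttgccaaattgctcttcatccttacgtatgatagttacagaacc
chr4:146889650-146904300 (forward strand, near Zfp982): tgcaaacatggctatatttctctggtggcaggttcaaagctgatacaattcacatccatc
chr4:146965675-146979325 (forward strand, near Zfp985): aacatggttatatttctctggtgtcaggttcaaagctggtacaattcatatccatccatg

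The probes of 9 of the 10 loci that were most decreased on the knockout array are shown for the same reason.

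chr14:62280837-62283960 (reverse strand, near Kcnrg): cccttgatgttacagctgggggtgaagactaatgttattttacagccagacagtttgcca
chr11:97457180-97487074 (reverse strand, near Epop): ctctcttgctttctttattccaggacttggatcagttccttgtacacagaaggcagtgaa
chr3:87757295-87774970 (forward strand, near Nes): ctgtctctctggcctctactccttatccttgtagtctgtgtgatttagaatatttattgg
chr1:38892041-38893543 (reverse strand, near Chst10): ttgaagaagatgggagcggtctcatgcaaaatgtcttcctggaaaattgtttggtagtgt
chr2:155289631-155292565 (reverse strand, near Ggt7): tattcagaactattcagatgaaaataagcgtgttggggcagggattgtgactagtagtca
chr14:65874977-65880202 (reverse strand, near Fbxo16): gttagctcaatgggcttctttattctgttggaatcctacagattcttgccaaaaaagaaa
chr15:100909469-100910253 (forward strand, near Fignl2): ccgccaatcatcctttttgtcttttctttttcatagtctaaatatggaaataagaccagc
chr16:46384974-46391331 (reverse strand, near Nectin3): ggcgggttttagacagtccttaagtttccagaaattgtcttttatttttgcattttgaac
chr2:33500594-33501874 (forward strand, near Lmx1b): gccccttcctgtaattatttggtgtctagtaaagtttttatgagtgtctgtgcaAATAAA

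The next 6 belong to loci that differed at least 2-fold in the same direction as their nearest gene, and they are shown because the pairs below rest on them.

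chrX:135880775-135891525 (reverse strand, near Trap1a): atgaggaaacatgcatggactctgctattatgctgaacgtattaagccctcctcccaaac
chr14:28218945-28241903 (reverse strand, near Arhgef3): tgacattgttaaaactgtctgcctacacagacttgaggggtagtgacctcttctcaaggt
chr4:146124275-146149125 (reverse strand, near Zfp600): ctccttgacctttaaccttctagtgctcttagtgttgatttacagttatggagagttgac
chr8:94841965-94881130 (reverse strand, near Irx5): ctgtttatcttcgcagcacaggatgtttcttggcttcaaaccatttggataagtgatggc
chr5:77239012-77271614 (forward strand, near Cracd): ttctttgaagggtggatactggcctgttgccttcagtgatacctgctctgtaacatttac
chr3:51890691-51891781 (reverse strand, near Maml3): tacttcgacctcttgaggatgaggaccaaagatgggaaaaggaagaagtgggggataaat

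Of these 25 probes, those near Kcng1 and Lmx1b held a hexamer, AATAAA in both. The probes near Zfp982 and Zfp985 read almost the same letters: in their best ungapped overlap 52 of 60 bases were identical, so signals of these loci cannot be told apart with certainty. The probe of the reverse locus chr4:146124275-146149125 shared a run of at least 25 bases with the probes of 2 other loci. The forward locus upstream of Nes has a probe without a position in the file, and its placement rests on its name alone. No other probe among the 25 had over 35 identical bases with a probe of another name on the array.

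A hexamer on the probe's own strand was held by 6.37% of the 2984 probes of these loci, by 7.38% of their 1382 measured probes and by 8.96% of the 212 measured probes of loci that differed at least 2-fold. The share was 14.1% among 29638 probes of RefSeq protein-coding transcripts and 13.4% among all 56605 probes, each of 60 bases. The same letters on the opposite strand were held by 4.99% of the loci's probes and 6.19% of those of protein-coding transcripts. The median GC content was 45% for the loci's probes and 43.3% for those of protein-coding transcripts. A match is a description of these letters only, and the search covered AATAAA and ATTAAA.

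The loci had a median length of 9669 bases, from 62 to 533972. Forward loci numbered 1376 and reverse loci 1318. They were not independent of each other: merged where they overlap, they formed 2091 regions by strand and 1405 regardless of strand. Their 1253 nearest genes lay at a median gap of 11864 bases, with 1390 loci on the strand of that gene and 1304 on the other strand. Position is relative to the probe of the gene, which usually sits near the transcript's 3′ end, so a locus called upstream can reach into the gene body; 973 loci lay upstream, 1556 downstream, and 165 overlapped the probe. Whether a locus is exonic or intronic was not analysed here. By probe positions 16 loci lay between the outermost probes of their nearest gene, which goes against the word intergenic.

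The loci just inside the limit were near Yy1 (gap 49787 bases, log2 difference 0.56), Usp46 (49780, 1.23) and Pcbp1 (49745, 0.15). Those just outside it were near Klf9 (50154, 3.11), Hdgfl1 (50746, 0.17) and Dynlrb2 (50796, 0.87).

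No probe carries the name Linc1548 (0 probes), so the level of the targeted RNA is not known from these probes and the genotype labels were not checked. A limit of 2-fold was applied to signals scaled to the 75th percentile of each array, and a probe counted as measured where it was well above background on both arrays. Among 31536 measured probes, 10.5% were higher by at least 2-fold and 8.44% lower by as much, and the median log2 difference was 0.09. Spots of 298 probes printed repeatedly had a log2 SD of 0.065 in wild type and 0.070 in the knockout, which covers error within an array only.

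Cell type markers moved with the groups. All 6 markers of pluripotent cells were seen on both arrays, 5 of them at least 2-fold higher, and the summed signal of their brightest probes was 9569 in wild type and 76052 in the knockout. All 4 neural progenitor markers were at least 2-fold lower, with sums of 59729 and 4391, as were all 4 neuronal markers, with sums of 15182 and 3234. Endoderm markers (5 of 5 seen, 1 higher and 1 lower) summed to 23187 and 7481, a sum carried by Foxa2 (21970 and 5976), without which the other 4 summed to 1216 and 1505. Trophoblast markers (3 of 4 seen, 2 higher) summed to 975 and 5658. Mesoderm markers (3 of 5 seen) summed to 4082 and 2859. Markers of blood and endothelium (4 seen on the wild type array, 3 on the knockout array, 1 higher and 1 lower) summed to 529 and 522. Hand1, Mesp1 and Elf5 were not well above background on either array. In these mixed cultures fewer cells of a type and less RNA per cell cannot be told apart, and the part of cell type composition in the loci's differences was not tested.

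Detection was less common among these loci than among genes. On both arrays 1284 loci (47.7%) were measured, 180 (6.68%) passed background on the wild type array alone, 96 (3.56%) on the knockout array alone, and 1134 (42.1%) on neither. Among protein-coding genes 69.2% were measured on both arrays, and among lincRNA loci further than 50 kb from a gene 38.0%. Shares among measured loci refer to different detected fractions.

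Most measured loci had similar signals on both arrays. Of 1284 loci, 140 (10.9%) were higher on the knockout array by at least 2-fold and 61 (4.75%) lower by as much, while 1083 stayed within 2-fold. The share that was higher is close to the 10.5% of all probes, and the share that was lower is below the 8.44% of all probes; measured protein-coding genes had 12% higher and 9.74% lower. The median log2 difference was 0.17, with quartiles of −0.23 and 0.53 and an SD across loci of 0.80, against a median of 0.06 and an SD of 1.01 over 13937 protein-coding genes. Differences of at least 4-fold were found for 43 higher and 10 lower loci. The same count was not made over all probes or genes, so this split cannot be read as particular to the loci.

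The balance between higher and lower depends on the scaling. Higher loci made up 69.7% of the loci past 2-fold with the 75th percentile, and 34.9% with arrays centred on the 8 spike-in probes, which moved the median over all probes to −0.30 and the median of the loci to −0.22. Under spike-in centring 5.92% of the loci were higher and 11.1% lower, beside 6.37% and 15.9% of all probes, so the smaller share of lower calls among the loci than among all probes was seen with either scaling. The loci that kept their call under all 5 scalings were 76 higher and 61 lower, though each scaling gave its own counts. That 0 changed direction says little for median and spike-in centring, because each moves all loci by a common amount. That amount is far short of the span from 2-fold higher to 2-fold lower. Quantile normalization and loess move loci by amounts that differ with their signal. After scaling, the lowest signal that passed background was 21.3 in wild type and 30.5 in the knockout. A lower call therefore needed a wild type signal of at least 60.9, whereas a higher call needed a knockout signal of only 42.6.

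Loci further than 50 kb from genes were called more often in both directions. Of 519 measured distant loci, 85 (16.4%) were higher and 45 (8.67%) lower, with a median log2 difference of 0.23. This is a comparison of shares within the same pair of arrays, with no test.

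**Figure D1:**
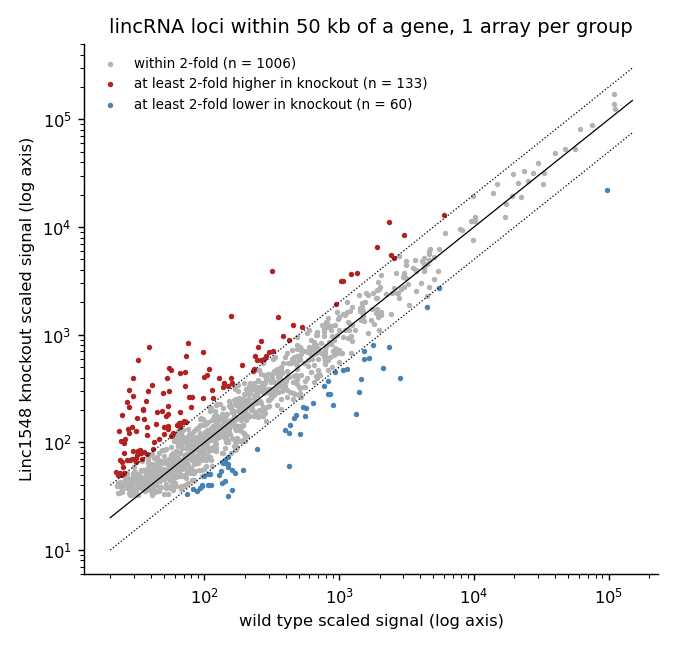
Scaled signal of each lincRNA locus with 1 measured probe on the wild type array (horizontal, log axis) and the knockout array (vertical, log axis). The solid line is equality and the dotted lines are 2-fold; most points lie between the dotted lines, and points at least 2-fold higher on the knockout array are concentrated at low wild type signals.

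The 10 largest increases were mostly from signals near background on the wild type array. The locus near Zfp600, a KRAB zinc finger gene, read 38.9 in wild type and 764 in the knockout (19.6-fold). The locus near Hat1, which encodes a histone acetyltransferase, read 31.9 and 586 (18.4-fold). The locus near Zfp202, a zinc finger gene, read 29.6 and 398 (13.4-fold). All of these wild type signals lie close to the lowest signal that passed background, which leaves the size of these folds imprecise.

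The locus near Serpini1, which encodes the neuronal serpin neuroserpin, started from a wild type signal well clear of background, 318 against 3929 (12.4-fold). The locus near Zfp715 also started above 100, at 156 against 1507 (9.65-fold), and the locus near Kcng1, which encodes a modulatory potassium channel subunit, read 75.1 and 829 (11.0-fold). The Serpini1 and Zfp715 loci also passed a stricter filter, at 4 times the lowest signal well above background on each array. The Kcng1 locus did not, so the size of its fold is less sure. Those near Gm5862 (27.7 and 307, 11.1-fold), Cdx4, a caudal-type homeobox gene (29.4 and 267, 9.08-fold), Zfp982 (54.6 and 496, 9.08-fold) and Zfp985 (26.6 and 238, 8.93-fold) complete the set. The genes at Gm5862 and Cdx4 were themselves not measured on both arrays.

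The largest decreases started from wild type signals clear of background, and 3 of them ended near it. The locus near Lmx1b, a LIM homeobox gene of midbrain and hindbrain development, read 1342 in wild type and 182 in the knockout (7.39-fold lower). The locus near Nectin3, a cell adhesion gene, read 2832 and 395 (7.18-fold lower). The locus near Fignl2 read 427 and 60.4 (7.06-fold lower). Of these, the Fignl2 locus came closest to background on the knockout array.

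The forward locus upstream of Nes, the gene of the progenitor intermediate filament nestin, read 97171 in wild type and 22232 in the knockout (4.37-fold lower). The locus near Fbxo16, an F-box gene, read 1405 and 296 (4.74-fold lower), and the one near Epop, which encodes a protein that associates with Polycomb repressive complex 2, read 2113 and 495 (4.27-fold lower). The locus near Kcnrg read 514 and 121 (4.26-fold lower). The loci near Ggt7 (150 and 31.9, 4.72-fold lower) and Chst10 (160 and 35.7, 4.47-fold lower) ended near background on the knockout array. With another background correction, normexp, their log2 differences were −0.97 and −0.86, inside 2-fold. That setting adds an offset of 50 to each signal, which by itself makes folds of dim probes smaller.

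**Figure D2:**
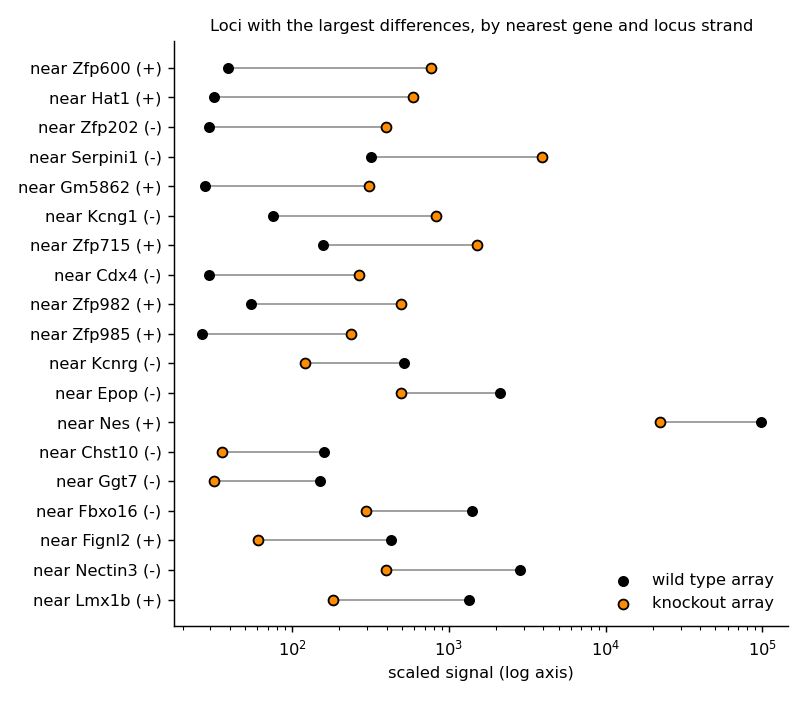
Scaled signal (log axis) of the 10 loci with the largest increase and 9 of the 10 with the largest decrease on the knockout array, labelled by the nearest gene and the strand of the locus. Black points are the wild type array and orange points the knockout array; 6 of the 10 increases start at 38.9 or less on the wild type array, and 7 of the 9 decreases start at 427 or more.

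Some of the genes beside these loci shared the difference and others did not. Of the 10 largest increases, 3 of 8 measured neighbours were higher, where 12% of all measured protein-coding genes were, and of the 10 largest decreases, 3 of 9 were lower, where 9.74% were. Among the increases, the nearest gene was also at least 2-fold higher for Zfp600 (12.1-fold), Zfp982 (8.78-fold) and Zfp985 (4.18-fold). All 3 lie in 1 region of chromosome 4 whose genes are close copies of each other, so they do not count as separate readings. Hat1 (log2 difference 0.89), Serpini1 (0.27) and Zfp715 (0.11) stayed within 2-fold, while Zfp202 (−1.60) and Kcng1 (−1.23) were lower. Among 9 of the 10 largest decreases, Nes (−2.52), Fignl2 (−1.56) and Fbxo16 (−1.17) were lower as genes. Chst10 (−0.92), Ggt7 (−0.75), Epop (0.64) and Kcnrg (0.31) were within 2-fold, and Lmx1b was not measured on both arrays. Nectin3 had a median of −0.52 over 3 probes that disagreed: the probe nearest to the locus, on its strand, differed by −2.46 (605 and 110), close to the −2.84 of the locus, and the others by −0.52 and −0.51.

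Some loci were well above background on a single array, so that only a lower bound on the fold can be given, the bright signal divided by whichever is greater on the other array, the dim probe's own signal or the lowest signal that passed background. Among the 96 loci seen only on the knockout array, 63 had a bound of at least 2-fold. The largest were near Spindoc (at least 11.5-fold higher, knockout signal 245), Dclre1a, a DNA crosslink repair gene (at least 10.4-fold, 221), Olig2, a ventral neural tube factor gene (at least 9.75-fold, 208), Olfr986 (at least 9.37-fold, 200) and Cstf3, a cleavage stimulation factor gene (at least 9.21-fold, 196). Of the 180 loci seen only on the wild type array, 18 had a bound of at least 2-fold and 83 had none above 1-fold. The lowest signal that passed background was 21.3 in wild type and 30.5 in the knockout, which by itself favours larger bounds for loci seen only on the knockout array. The same counts were not made over genes or all probes. The largest were near Rcor3, a corepressor gene (at least 7.01-fold lower, wild type signal 213), B3gnt2 (at least 5.28-fold, 161), Dpy19l1 (at least 3.56-fold, 108), Rab11fip4 (at least 3.27-fold, 99.7) and Foxd2, a forkhead gene (at least 2.99-fold, 91.1). Foxd2 itself was 11.9-fold lower, while B3gnt2 was 4.39-fold higher.

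The 85 loci with several measured probes show how far probes of 1 locus differ. Their log2 differences spanned a median of 0.37, the span exceeded 1 in 10 loci and reached 2.87, and in 0 loci did probes pass 2-fold in both directions.

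A second reading came from probes of other names that lie inside a locus. On the strand of the locus, such probes were measured in 166 loci, and the log2 differences correlated with Pearson's r = 0.59 and a Spearman coefficient of 0.58 across loci, with a median absolute difference of 0.31. Of 15 loci that were at least 2-fold higher, 9 had the other probes at least 2-fold higher too, and of 7 that were lower, 3. None of the 166 (0) passed 2-fold in opposite directions. On the opposite strand, in 168 loci, r was 0.13 and the Spearman coefficient 0.17, with a median absolute difference of 0.51; 3 of 12 higher loci and 0 of 6 lower loci were matched and 2 opposed. These points share both arrays and the scaling, and several share a region or the same other probe. At some loci, such as those near Snx6 and Ptrhd1, the other probes are those of the nearest gene itself. There the comparison is between locus and neighbour.

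**Figure D3:**
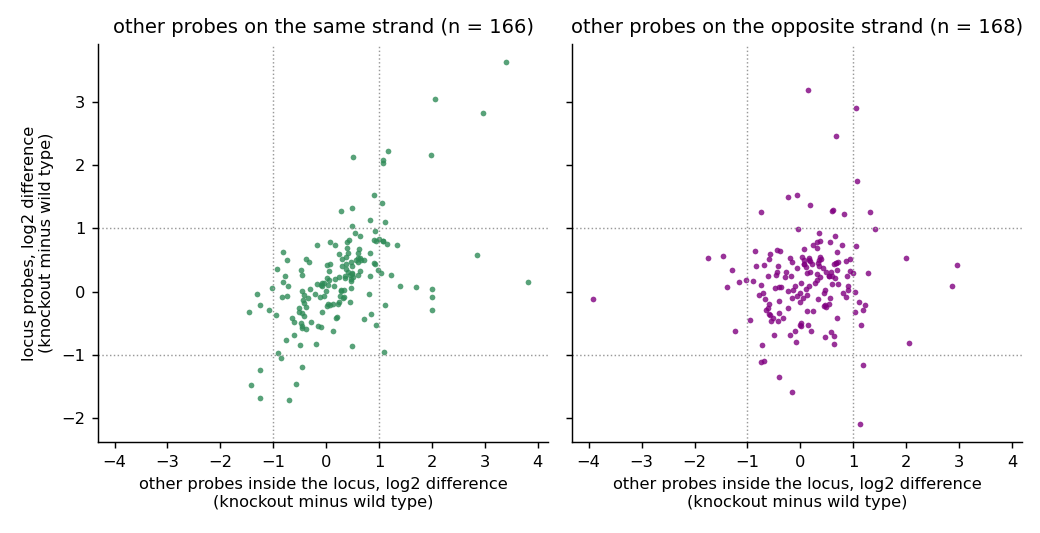
Log2 difference (knockout minus wild type) of the locus probes against that of differently named probes inside the same interval, on the strand of the locus (left, 166 loci) and on the opposite strand (right, 168 loci). Dotted lines mark 2-fold; the points follow a diagonal on the left (r = 0.59) and hardly any on the right (r = 0.13).

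For 50 of the measured loci these probes carry the accession of an annotated non-coding transcript on the same strand, and across them r was 0.75 and the Spearman coefficient 0.70. The loci that follow were chosen after their values were seen: 8 of the 50 passed 2-fold, and all are given.

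The reverse locus near Serpini1 holds Platr10, one of the pluripotency-associated transcripts of mouse embryonic stem cells. The locus probe differed by 3.63 on the log2 scale and the Platr10 probe by 3.40. The forward locus chr1:138570107-138632310 near Zfp281, a zinc finger gene of the pluripotency network, holds probes named Platr22 and Gm19705. It read 97.3 in wild type and 691 in the knockout (log2 2.83), and those probes differed by 2.97. Platr RNAs were thus higher on the knockout array by probes of separate design in both places.

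Crnde, a conserved RNA transcribed away from the patterning gene Irx5, lies on the reverse strand at chr8:94841965-94881130. The locus read 463 in wild type and 167 in the knockout (log2 −1.47), the Crnde probes differed by −1.41, and Irx5 was 8.86-fold lower. Snhg14, the host RNA of small nucleolar RNAs at the imprinted Snrpn locus, lies at chr7:67111261-67120645 on the reverse strand. That locus read 24.5 and 65.1 (log2 1.41), close to background on the wild type array, and the Snhg14 probe differed by 1.06. Both named RNAs differed in the direction of their locus.

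The remaining 4 were all higher. The reverse locus near Pacsin2, with 1700001L05Rik inside, read 109 and 484 (log2 2.15, against 1.97 for that probe), while Pacsin2 itself differed by 0.12. The forward locus near Epop, with 2410003L11Rik, read 278 and 599 (1.11, against 1.12). The locus with Speer4cos, near Speer4c, read 35.5 and 165 (2.22, against 1.18). The locus near Zfp984 read 27.7 and 122 (2.13), but the Smarca5-ps probes inside it differed by only 0.50.

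Loci tended to differ in the direction of their nearest gene, and weakly. In 1124 pairs, with 703 genes, both locus and gene were measured, and their log2 differences correlated with r = 0.27 and a Spearman coefficient of 0.24. These pairs share both arrays and the scaling, and loci with 1 neighbour share its value. Of the pairs, 31 were at least 2-fold higher in both members (26 genes), 21 lower in both (15 genes), 6 had the locus higher and the gene lower, and 3 the reverse. The neighbour was within 2-fold for 81 of 118 higher loci (68.6%) and 30 of 54 lower loci (55.6%), below the 79.4% over all 1124 pairs.

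Loci past 2-fold were more frequent beside genes past 2-fold, in the direction of the gene. Beside 138 pairs with a gene at least 2-fold higher, 22.5% of loci were higher and 2.17% lower. Beside 892 with a gene within 2-fold the shares were 9.08% and 3.36%. Beside 94 with a lower gene they were 6.38% and 22.3%. On the strand of the gene the matching shares were 25.4% for higher and 26.9% for lower genes, and on the opposite strand 19.4% and 16.7%.

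**Figure D4:**
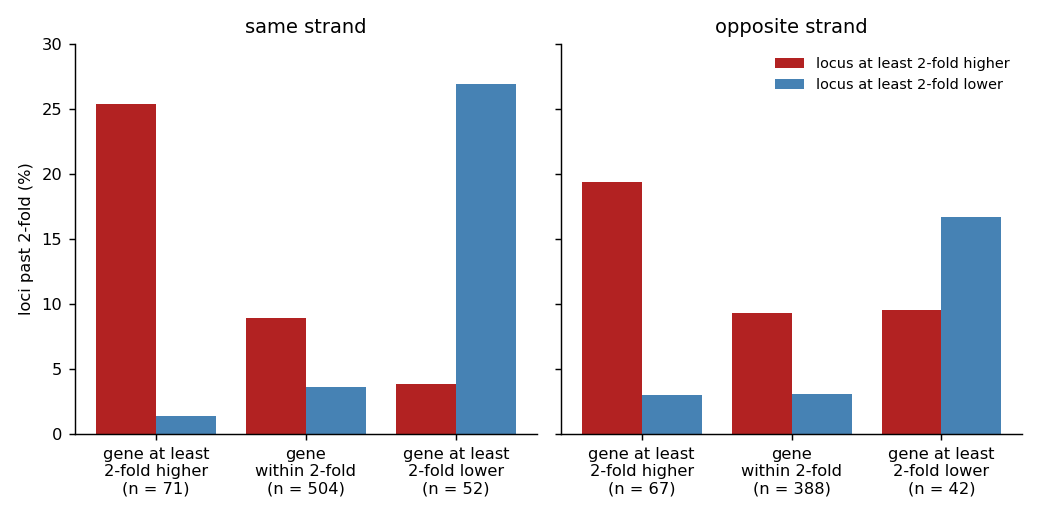
Percentage of lincRNA loci at least 2-fold higher (red) or lower (blue) on the knockout array, by the state of the nearest gene, for loci on the strand of the gene (left) and on the opposite strand (right), with the number of pairs under each bar. The highest red bars stand over genes that were higher (25.4% and 19.4%) and the highest blue bars over genes that were lower (26.9% and 16.7%).

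The relation differed with strand and position. On the strand of the gene r was 0.33 (627 pairs) and on the opposite strand 0.19 (497 pairs). Downstream of the gene's probe, r was 0.33 on the same strand (392 pairs) and 0.10 on the opposite strand (245 pairs). Upstream, where opposite-strand loci can be divergent transcripts, it was 0.31 (194 pairs) and 0.29 (215 pairs). Loci that overlapped the probe had r = 0.44 on the same strand (41 pairs) and 0.21 on the other (37 pairs).

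With distance the relation differed less by Pearson's r, but not by the Spearman coefficient. Pearson's r was 0.33 at a gap of 0 (78 pairs), 0.33 up to 5 kb (291 pairs), 0.24 from 5 to 20 kb (433 pairs) and 0.26 from 20 to 50 kb (322 pairs). The Spearman coefficient was 0.38, 0.29, 0.20 and 0.21 in the same order. By strand it was 0.31 on the strand of the gene and 0.16 on the opposite strand. Loci beyond 50 kb had r = 0.29 with their nearest gene (421 pairs), no less than the nearby ones. For reference, protein-coding genes paired with their nearest other gene within 50 kb, probe to probe, had r = 0.16 (6135 pairs). None of these correlations was tested against another.

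**Figure D5:**
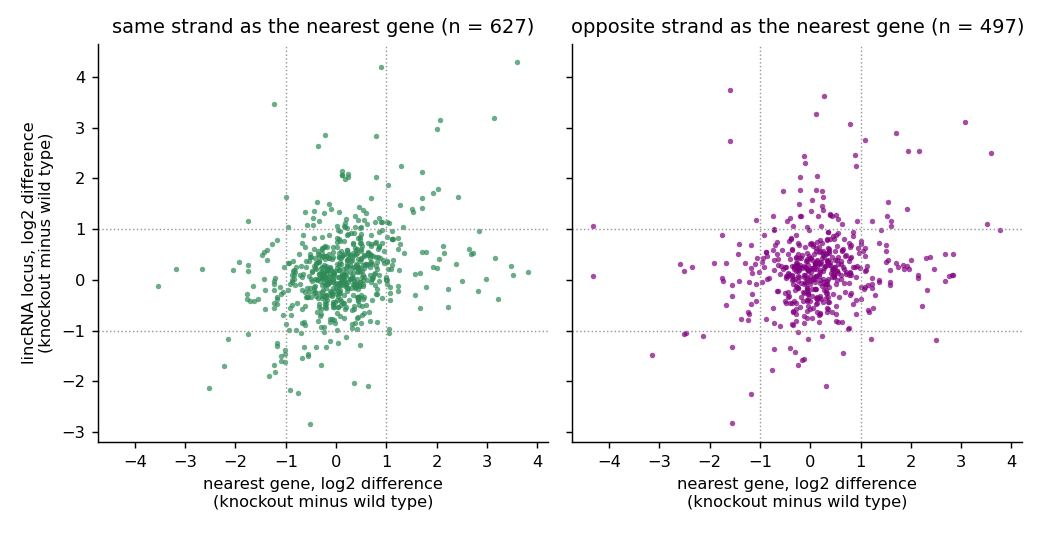
Log2 difference (knockout minus wild type) of each lincRNA locus against that of its nearest gene, for loci on the same strand (left, 627 pairs) and on the opposite strand (right, 497 pairs). Dotted lines mark 2-fold; most points crowd the central square, with more in the upper right and lower left corners (52 pairs) than in the other corners (9 pairs).

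The strongest shared increases joined zinc finger genes of chromosome 4 and a placental antigen. The Zfp600 and Zfp982 loci given above were 2 of the 5 pairs that led this group. The reverse locus near Trap1a, a gene of tumour and placental expression, read 73.3 and 633 (8.64-fold), with the gene 8.39-fold higher. The reverse locus near Arhgef3 read 35.1 and 205 (5.83-fold), with the gene 4.45-fold higher. The reverse locus near Zfp600 read 35.2 and 199 (5.64-fold), and this is the probe that shares bases with other loci.

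The strongest shared decreases included the loci of Nes and Fignl2 given above, Irx5, Cracd and Maml3. The forward locus upstream of Cracd read 169 and 51.9 (3.26-fold lower), with the gene 4.68-fold lower; with normexp the locus differed by −0.82. The reverse locus near Maml3, which encodes a Notch coactivator, read 1440 and 386 (3.73-fold lower), with the gene 2.53-fold lower. This locus lies on the gene's strand between its outermost probes, so its signal and that of the gene's own transcript cannot be told apart.

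The strongest opposed pairs were both reverse loci near Zfp202, the second of which read 36.7 and 245 (6.67-fold higher), the Kcng1 locus, and loci near Prrg4 and Sh3d19. The second Zfp202 locus lies inside the first on the same strand, and both share the gene's value, so these pairs do not count as separate readings. The forward locus near Prrg4 read 1072 and 473 (2.27-fold lower) while the gene was 5.69-fold higher. The reverse locus at Sh3d19 read 73.9 and 33.1 (2.24-fold lower) while the gene was 2.30-fold higher. With normexp these last loci differed by −0.97 and −0.29, inside 2-fold.

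Of the 2694 loci, 50 lay beside marker and regulator genes of this differentiation. Of the genes on 6 lists (naive and core pluripotency, primed epiblast, neural progenitor, neuronal, mesendoderm and other lineages, Hox), 24 were the nearest gene of a locus, which gave 50 loci. Of these 22 were measured, 3 were higher and 3 lower. Their median log2 difference was 0.22, beside 0.17 over all measured loci and 0.09 over all probes. Over all measured loci 10.9% were higher and 4.75% lower, and over all measured probes 10.5% and 8.44%. Counts as small as those of the lists were not tested against these shares. The pluripotency genes gave 14 loci with 5 measured (1 higher, 0 lower), primed epiblast genes 4 with 4 measured (0 and 0) and neural progenitor genes 23 with 7 measured (1 higher, 3 lower). Hox genes gave 7 with 6 measured (1 higher, 0 lower), mesendoderm genes 2 with 0 measured, and neuronal genes 0 loci.

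Beside pluripotency genes, 5 of 14 loci were measured. The forward locus upstream of Klf2, a naive pluripotency factor gene, was bright on both arrays, 32754 and 25308 (log2 −0.37), while Klf2 was 9.31-fold higher. The locus near Klf4, a reprogramming factor gene, read 77.2 and 78.1 (0.02) while the gene was 7.93-fold higher. The forward locus downstream of Klf5 was the one that passed 2-fold, at 37.4 and 117 (1.64; 0.96 with normexp), with the gene 5.38-fold higher.

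The Sall4 locus read 274 and 327 (0.26, gene 0.42), and the locus that ends upstream of Sox2 read 23.3 and 39.4 (0.76, gene 0.15), near the limit of detection. That Sox2 locus is the longest of all, 533972 bases, and its probe lies 547767 bases from the probe of Sox2, so the reading was taken far from the gene.

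Beside primed epiblast genes, the 3 loci upstream of Pou3f1, which encodes OCT6, had log2 differences of 0.03, −0.09 and −0.12, against 1.22 for the gene. The forward locus near Otx2 read 316 and 428 (0.44), while Otx2 was 4.95-fold higher. All 4 loci were within 2-fold.

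Beside neural progenitor genes, the locus near Pou3f3 read 181 and 167 (−0.11) while the gene was 11.7-fold lower. At Nr2f1, a nuclear receptor gene 20.1-fold lower, overlapping forward loci read 41.2 and 86.0 (1.06; inside 2-fold with median centring, quantile normalization, spike-in centring and normexp) and 72.0 and 76.2 (0.08). Neither locus was lower.

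Nes had 3 measured loci upstream. The forward and the reverse locus of the interval chr3:87757295-87774970 were lower by log2 differences of −2.13 and −1.07, the latter a median of 3 probes from −1.66 to −0.69 and −0.78 with normexp. The shorter reverse locus inside that interval, chr3:87764926-87769766, read 143 and 163 (0.19). The probes of the longer interval have no position in the file, whereas that of the shorter locus has one, so the 2 lower readings are less surely placed.

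At the Hox clusters, the locus upstream of Hoxb4 read 69.3 and 154 (1.16; 0.77 with spike-in centring and 0.80 with normexp), while Hoxb4 was 3.39-fold lower. The 3 loci upstream of Hoxb9 had log2 differences of 0.91, 0.61 and 0.58, all within 2-fold.

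The array holds both strands of 582 intervals, and in 175 both were measured. Their log2 differences were only weakly related, with r = 0.13 and a Spearman coefficient of 0.16 across intervals. In 29 intervals a single strand passed 2-fold, in 142 neither did, and in 36 the strands differed by more than 1 on the log2 scale. Forward and reverse readings of the same interval therefore mostly behaved as separate measurements.

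Both strands were higher near Adam4 (1.13 forward, 1.23 reverse) and near Mfsd5 (2.09 and 1.75), and both were lower near Nes. The interval near Epop was the one with opposed strands, 1.11 forward and −2.09 reverse. Its forward reading was close to that of the separate 2410003L11Rik probe, and Epop itself, which lies on the reverse strand, differed by 0.64.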

How the data were processed

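Total RNA of wild type 46C cells and of the KO-Linc1548 genotype, both taken at day 5, was labelled with Cy3, per the labels' protocols, and read on 1-colour Agilent arrays, 1 per group. The deposited intensity values of each spot were made with version 10.7.1.1 of Agilent Feature Extraction and, per the file headers, are background-subtracted within an array but not normalized between arrays. Slide and scan were shared by the arrays and do not separate the groups, whereas position on the slide and culture cannot be told apart from genotype. Positions are mm9.

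Outlier spots were left out (173 wild type, 155 knockout of 59305 non-control spots each) and spots of a probe averaged as log2 values. Each array was centred on its 75th percentile (864 and 652 before centring), and printed signals are on a common scale. A probe was measured where at least a share of 0.5 of its spots was well above background on both arrays; 0 probes were saturated. A locus or gene takes the median of its measured probes, and signals are printed only for loci with 1. Of 29638 probes with NM_ accessions, 29339 matched a RefSeq table of GRCm38.p6, used for names only.

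With 1 array per group there is no test and no p-value. The members and lists were chosen with earlier results of these data known. Named are the 10 largest differences each way, the 5 largest bounds each way, 5 pairs in each shared direction and 5 opposed, and measured loci beside genes of 6 lists; others are said to be chosen later. Some loci that this rule takes are not reported here, though counts include them. Probe letters are the array's own. Of the loci, 63 have a probe that shares at least 25 bases with a probe of another name, 46 of them measured, and 12 have no probe positioned inside their interval, 4 of them measured. Alternatives were median centring, quantile normalization, loess and spike-in centring. Another was normexp on the deposited mean and background intensity, with an offset of 50 added to each signal (limma 3.58.1, R 4.3.3). The rest were other filters on dim probes, 1 locus per gene and a 10 kb limit. The steps were tested on simulated arrays.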

Additional observations from a re-analysis of the deposited data

How the results depend on the processing

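With 1 array per group no replicate could be left out, and the number of arrays limits every difference. No paired analysis was possible because each group holds a single array. Loess changed none of the summary values beyond their tolerance (1.5 times for a count, 0.1 for a median, 0.05 for a correlation). The median log2 difference of the loci was 0.063 with median centring, 0.058 with quantile normalization and 0.38 without the filter on dim probes, and it reversed to −0.22 with spike-in centring. Spike-in centring gave 76 higher loci, 142 lower loci and 5 opposed pairs. Normexp background correction gave 80 higher, 29 lower, 28 pairs in the same direction and 3 opposed. Without the filter there were 361 higher, 147 lower, 140 pairs in the same direction and 28 opposed, and the correlation between strands was 0.20. A stricter filter, at 4 times the lowest signal well above background, left 663 loci, of which 49 were higher and 31 lower, with 21 and 2 pairs and a strand correlation of 0.024. Loci up to 10 kb from a gene, which are fewer, gave 60 higher, 34 lower, 22 and 3 pairs and a locus to gene correlation of 0.33. Of the 33 named loci measured on both arrays and past 2-fold, normexp ended 9 calls and spike-in centring 2. Median centring, quantile normalization and no filter ended 1 each, and 0 reversed. The stricter filter left only 12 of the 33 to be read, and those 12 kept their call. Normexp was run with an offset of 50, which by itself makes folds of dim probes smaller, and its part in the ended calls was not tested. The cause of these changes was not tested, apart from the smaller number of loci under the stricter filter and the 10 kb limit. Restricting to probes positioned inside their locus, or to 1 locus per overlapping group, both chosen after seeing the data, kept the counts of loci and pairs, the median and the locus to gene correlation within these tolerances; the strand correlation was not recomputed there.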

Other observations

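For 18 measured genes more than 1 neighbouring locus was past 2-fold. The loci past 2-fold were all higher at 9 genes, all lower at 7 and went both ways at 2, Epop and Zfhx2 (−1.32 and 1.23 on the log2 scale, gene −0.41). Of the genes with 1 direction, 9 were past 2-fold in that direction, 6 were within 2-fold and Zfp202 was past it the other way. The genes that follow were chosen after their values were seen, and loci that overlap do not count as separate evidence. Near Mfsd5, all 3 measured loci were higher (44.8 against 191, 44.0 against 148 and 104 against 426, wild type first), while Mfsd5 differed by 0.23 on the log2 scale. Near Snrpn, all 3 were higher (log2 1.41, 2.90 and 1.62), with Snrpn at 1.71. The third of these read 1026 and 3156, well above background on both arrays. Near Btg1, an antiproliferative gene, the 3 forward loci downstream of the gene were lower (−1.39, −1.62 and −1.46), with the gene at −1.02, while the overlapping reverse locus differed by 0.15. Near Ikzf2, a zinc finger gene, both loci were lower (−1.60 and −1.49), with the gene at −1.10. Near Zfp281, 3 of 8 measured loci were higher, the reverse locus chr1:138518674-138521227 (40.8 against 343, log2 3.07) and the overlapping forward loci around Platr22 (2.03 and 2.83), and the gene differed by 0.80. Near Rps20 (gene −0.20), 2 of 5 measured loci were higher, and near Trim61 (gene 0.19) both were.

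A region of chromosome 4 rich in zinc finger genes held 13 loci, near Zfp981, Rex2, Zfp600, Zfp982, Zfp985 and Zfp984. It was chosen after its values were seen and holds loci already named among the largest increases, so higher loci were to be found there. Of the 13 loci 5 were measured and all were higher, with log2 differences from 2.13 to 4.29, where 10.9% of all measured loci were higher. Another 5 passed background on the knockout array alone and 3 on neither. The genes were also higher: Rex2 by 3.67, Zfp981 by 3.65, Zfp600 by 3.6, Zfp982 by 3.13, Zfp985 by 2.06 and Zfp984 by 1.71. Genes of this region are close copies of each other, and the probes of 3 of the 13 loci share a run of at least 25 bases with another locus, so the loci are not separate readings.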
